A study of Mus musculus with 21 samples.

Results

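The 42 genes described here encode the machinery that targets proteins to the endoplasmic reticulum (ER) and passes them into or through its membrane, out of 45706 genes in the deposited count table. They were taken as rows of that table by gene name. All 42 were found, 41 under the listed symbol and Camlg as Caml, a RefSeq synonym. They were set out in 7 arms: 8 genes of the signal recognition particle (SRP) and its receptor, 6 genes of the Sec61 channel with Sec62 and Sec63, 4 genes of the translocon-associated protein complex (TRAP, symbols Ssr), 5 signal peptidase genes, 4 accessory genes (Tram1, Tram2, Serp1 and Hspa13), 10 genes of the ER membrane protein complex (EMC) and 5 tail-anchor insertion genes.

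RNA-seq had been done on the mouse prostate cancer line Myc-CaP, which carries a Myc transgene, and on tumours grown from it in FVB mice. IRE1α knockout (KO) lines had been made by CRISPR-Cas9 with a guide RNA against IRE1α, whose gene is Ern1, and were set beside wild-type (WT) Myc-CaP. KO1, KO2 and KO3 cells and WT cells had 2 libraries each. KO1, KO2 and KO3 tumours had 3 libraries each and WT tumours had 4. The labels do not say whether a KO line is a clone, whether the cell libraries came from separate cultures, or how old the mice were, so the p-values speak only of library-to-library spread, which in cells may be technical. WT tumours 3 and 4 are described by 1 number with the letters L and R, and these tumours may come from the same mouse.

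Most secreted and membrane proteins reach the ER while they are still being made. SRP binds the signal sequence as it leaves the ribosome and docks at the SRP receptor, the chain enters the Sec61 channel, TRAP and TRAM help particular signal sequences to open it, and signal peptidase removes the signal. EMC inserts many transmembrane segments, and tail-anchored proteins, whose only membrane segment lies at the end of the chain, take a separate route through Bag6, Get4, Asna1 and the receptor of Wrb and Camlg. IRE1α senses unfolded protein in the ER, and its RNase starts the splicing of Xbp1 mRNA into a form that encodes XBP1s, a transcription factor for many ER genes.

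XBP1s binds DNA elements built around CCACG, so the members' promoters were read for it. RefSeq promoter sequences (GRCm38.p6, 250 bases before to 50 bases after the start) were at hand for 28 of the 42 members. The stretches below, 80 bases long and upstream of the start, are shown because 3 of them hold the longer motif CCACGTC and the last belongs to Ssr3, the member with the highest CPM. All 4 genes were lower in KO cells. Each is written 5′ to 3′ on the gene's own strand, with CCACG or its reverse complement CGTGG in capitals.
Serp1, chr3:58525886-58525965, minus strand: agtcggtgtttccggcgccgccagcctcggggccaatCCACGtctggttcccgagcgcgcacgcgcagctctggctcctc
Ssr1, chr13:37994209-37994288, minus strand: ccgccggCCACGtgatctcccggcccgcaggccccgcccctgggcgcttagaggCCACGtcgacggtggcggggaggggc
Sec63, chr10:42761416-42761495, plus strand: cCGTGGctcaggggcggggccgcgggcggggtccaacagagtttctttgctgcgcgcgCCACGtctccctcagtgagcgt
Ssr3, chr3:65392701-65392780, minus strand: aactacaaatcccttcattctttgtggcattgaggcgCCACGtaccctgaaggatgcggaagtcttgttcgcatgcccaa

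In Serp1, Ssr1 and Sec63 CCACGTC began at positions -44, -26 and -22 from the start, and CCACG in Ssr3 began at -190. Searched on both strands, CCACG was in the promoters of 17 of the 28 members (60.7%), against 35.5% of all 27025 genes with a promoter of the same length. CCACGTC, every copy of which contains CCACG, was in 3 of 28 (10.7%) against 2.73%. The ER stress response element, CCAAT and CCACG with 9 bases between them, was in 0 of 28 against 0.137% of all genes, and ERSE-II, ATTGG and CCACG with 1 base between them, was in 0 of 28 against 0.0444%. These are matches of letters in a fixed window, and the 27025 genes were not matched to the members in expression.

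Library totals ran from 18105538 to 25068254 counts in cells and from 15994285 to 27497796 in tumours. Levels are given as CPM (counts scaled to a common library size), scaled by the trimmed mean of M values (TMM) over all 21 libraries. Ern1 mRNA was at 171 to 196 CPM in KO cells and 118 to 133 CPM in WT cells, rising by 0.56 on the log2 scale in the pooled edgeR comparison, and at 60.3 to 92.04 CPM in KO tumours and 64.6 to 83.96 CPM in WT tumours. A gene count does not read a small deletion, so it checks nothing about the edit. The prostate epithelial markers Krt8, Krt18, Epcam and Cdh1 were low in culture: they summed to 26.5 to 31.9 CPM in KO1 and KO2 cells, 131 to 154 CPM in KO3 cells and 22.1 to 23.6 CPM in WT cells. Epcam had 0 counts in every cell library, so these 4 markers give little check of the epithelial label. WT tumour 4 had 24% of its counts in 1 gene, Yam1, against 6.165% to 8.473% in the other tumours. WT tumour 1 had 248.5 CPM of neutrophil markers, against 2.35 to 8.62 CPM in the other tumours, and the most skeletal muscle transcripts, 4119 CPM.

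In WT cells the members differed widely in level per length of the main annotated transcript. Sec61b, the small β subunit of the channel, led with 376 CPM per kb, followed by Ssr3 at 312, Ssr2 at 259, Spcs1 at 236 and Sec61a1, the pore subunit, at 226 CPM per kb. Tram2, a relative of Tram1, was the lowest member detected in cells, at 2.15 CPM per kb, and Sec61a2, the other pore paralogue, was at 8.04 CPM per kb. Srp54a, a copy of the signal-binding SRP subunit, had 0 counts in every cell library. It had 191, 65 and 0 counts in KO1 tumours, 0, 114 and 66 in KO2 tumours, 0, 274 and 0 in KO3 tumours and 0 in every WT tumour. It shares 72.5% of its 31-base words with other genes, most with Srp54b, so the split between these copies is uncertain and no fold is given for Srp54a. Summed, Srp54a and Srp54b had 100.3 to 117 CPM in KO cells and 158 to 161 CPM in WT cells.

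In cultured cells the KO lines had lower levels of SRP, Sec61, TRAP, signal peptidase and accessory genes, while few EMC and tail-anchor genes passed the test. Of 41 members tested, 24 fell and 0 rose in KO cells by edgeR's quasi-likelihood test at an adjusted p of 0.05, against 9.76% of all 12254 genes tested that fell and 4.99% that rose. The median log2 fold change was -0.61 over the members and 0.02 over all genes. Summed, the 42 members stood at 3244 to 3465 CPM in KO cells and 6370 to 6427 CPM in WT cells, or 51.1%, 51.3% and 53.3% of the WT mean in KO1, KO2 and KO3. In 28 of the 42, all KO libraries lay below both WT libraries, as they did in 19.3% of all genes tested. WT was a single line. When the libraries of each line were summed, 7 members were called, against 38 of all 13133 genes tested. The 7 were Sec61a1, Sec61b, Ssr1, Ssr2, Spcs2, Serp1 and Hspa13.

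**Figure D1:**
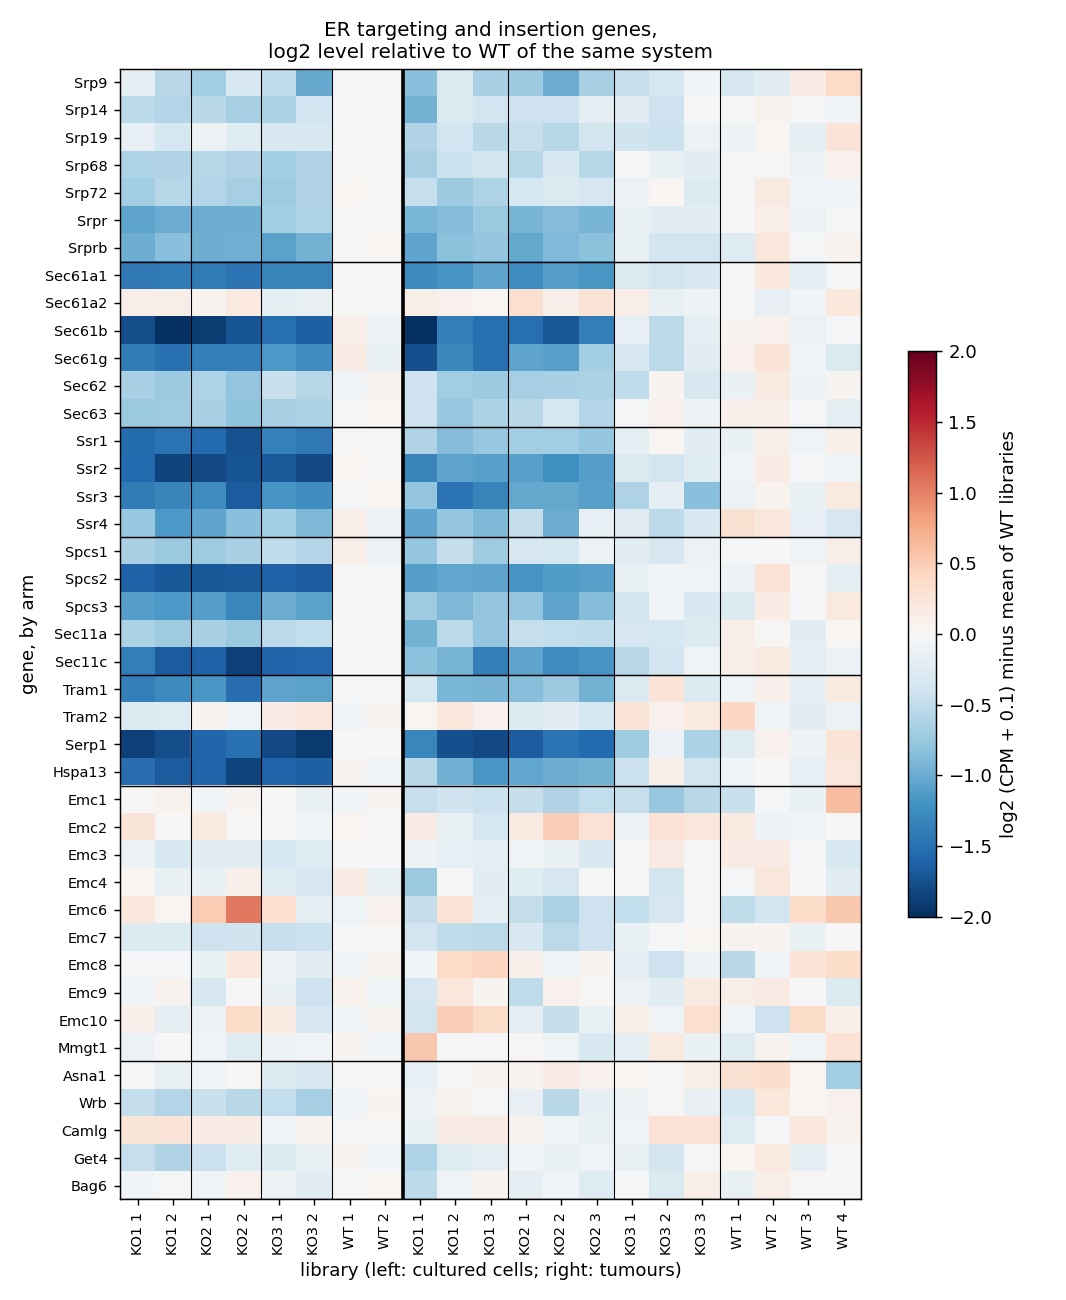
Level of 41 members in each of the 21 libraries, as log2 of CPM plus 0.1 minus the mean of the WT libraries of the same system (cells left, tumours right), with genes in rows by arm and Srp54a left out. In cells the KO columns are low in most SRP, Sec61, TRAP, signal peptidase and accessory rows, Sec61a2 and Tram2 excepted, and the KO3 tumour columns are paler than the KO1 and KO2 tumour columns.

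The Sec61 arm fell in 5 of 6 genes, with a median log2 fold change of -1.02. Sec61b (ENSMUSG00000053317, chr4:47474658-47483242, GRCm38) had 61.7 and 52.5 CPM in KO1 cells, 56.9 and 63.7 CPM in KO2 cells and 74.5 and 68.4 CPM in KO3 cells, against 228 and 196 CPM in WT cells. Its log2 fold change of -1.75 ± 0.12 (SE, adjusted p = 1.98e-05 by edgeR) was the largest among the members. Sec61a1 (ENSMUSG00000030082, chr6:88503579-88518905) had 258 to 288 CPM in KO cells, against 721 and 709.5 CPM in WT cells, a log2 fold change of -1.40 ± 0.07 (SE). Sec61g, the γ subunit, had 58.2 to 73.4 CPM in KO cells, against 181 and 147 CPM in WT cells, and fell by 1.34 on the log2 scale. The 3 genes of the channel trimer lay below both WT libraries in every KO library.

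The paralogue Sec61a2 did not pass. Its level was 17.3 to 22.6 CPM in KO cells and 19.96 and 19.4 CPM in WT cells, with overlapping ranges and a log2 fold change of 0.04 ± 0.12 (SE, adjusted p = 0.861 by edgeR). Sec62 and Sec63 are membrane partners of the channel that also serve chains delivered after synthesis. Sec62 had 148 to 187 CPM in KO cells, against 241 and 268 CPM in WT cells, and fell by 0.63 on the log2 scale. Sec63, whose J domain recruits the chaperone BiP, had 61.4 to 69.6 CPM in KO cells, against 105 and 110.1 CPM in WT cells, and fell by 0.70. Of the 31-base words of Sec61b and Sec61g, 23.5% and 15.7% also occur in other genes, chiefly the models Gm10320 and Gm10177, so a small part of their counts may be split.

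All 4 TRAP genes fell, with a median log2 fold change of -1.42. Ssr2 (ENSMUSG00000041355, chr3:88575876-88588419), the β subunit, had 105 and 85.2 CPM in KO1 cells, 88.02 and 92.9 CPM in KO2 cells and 96.4 and 87.9 CPM in KO3 cells, against 317 and 299 CPM in WT cells. Its log2 fold change was -1.74 ± 0.08 (SE, adjusted p = 3.11e-06 by edgeR). Ssr1, the α subunit, had 117 to 155 CPM in KO cells, against 399 and 389.7 CPM in WT cells, and fell by 1.51 on the log2 scale. No KO library came near the WT values in either gene. Ssr3, the γ subunit, had 289.9 to 406 CPM in KO cells, against 895 and 949 CPM in WT cells, and fell by 1.34. Ssr4, the δ subunit, had 65.6 to 89.4 CPM in KO cells, against 157 and 135 CPM in WT cells, and fell by 0.90, the smallest value of the complex.

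The 5 signal peptidase genes all fell, with a median of -1.12. Spcs2 (ENSMUSG00000035227, chr7:99837569-99863462), an accessory subunit, had 59.1 and 55.7 CPM in KO1 cells, 56.1 and 56.8 CPM in KO2 cells and 59.2 and 57.5 CPM in KO3 cells, against 185 and 179 CPM in WT cells. It changed by -1.66 ± 0.06 on the log2 scale (SE) with the smallest adjusted p of any member, 1.28e-06 by edgeR. Sec11c and Sec11a are alternative catalytic subunits. Sec11c had 4.39 to 6.12 CPM in KO cells, against 16.3 and 16.1 CPM in WT cells, and fell by 1.63. Sec11a had 57.6 to 68.8 CPM in KO cells, against 94.9 and 98.7 CPM in WT cells, and fell by 0.62, so that the catalytic paralogues differed in the size of their fall, a difference that was not itself tested. Spcs3, whose yeast counterpart is needed for cleavage, had 114 to 141 CPM in KO cells, against 283 and 280.4 CPM in WT cells, and fell by 1.12. Spcs1 had 98.6 to 116 CPM in KO cells, against 179 and 153 CPM in WT cells, and fell by 0.64. Sec11a overlaps Nmb on the same strand, so some of its counts may belong to that gene.

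Among the accessory genes 3 of 4 fell. Serp1, also called RAMP4 (ENSMUSG00000027808, chr3:58519817-58525892), a small protein bound to the channel, had 77.2 and 82.6 CPM in KO1 cells, 94.2 and 100.4 CPM in KO2 cells and 80.5 and 74.8 CPM in KO3 cells, against 279 and 284 CPM in WT cells, and fell by 1.73 on the log2 scale. It overlaps Eif2a on the opposite strand, and whether the counting used strand is not given in the sources used here. Hspa13, an HSP70-type ATPase of the microsome, had 22.7 to 28 CPM in KO cells, against 83.98 and 78.3 CPM in WT cells, a log2 fold change of -1.65 ± 0.08 (SE, adjusted p = 3.11e-06 by edgeR). Both were below WT in each line. Tram1, which contacts nascent chains in the membrane, had 44.5 to 61.9 CPM in KO cells, against 126 and 129.8 CPM in WT cells, and fell by 1.23. Tram2 was at 11.5 to 16.2 CPM in KO cells and 13.5 and 14.5 CPM in WT cells, with a log2 fold change of -0.02 ± 0.15 (SE).

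The SRP arm fell in 5 of 7 tested genes, with a median of -0.61. Srprb, the membrane-bound β subunit of the SRP receptor, had 37.7 to 44.4 CPM in KO cells, against 77.3 and 82.1 CPM in WT cells, a log2 fold change of -0.96 ± 0.07 (SE, adjusted p = 3.91e-05 by edgeR). The receptor's α subunit, Srpr, fell by 0.88 and was at 149 to 201 CPM in KO cells against 304 and 313 CPM in WT cells. Of the particle's own proteins, Srp72, Srp68 and Srp14 fell by 0.64, 0.61 and 0.56. Srp9 and Srp19 had log2 fold changes of -0.52 and -0.24 with adjusted p of 0.0727 and 0.0728 by edgeR, although every KO library lay below both WT libraries in each of them. Srprb overlaps the model Gm20425 on the same strand and Srpr shares 26.9% of its 31-base words with other genes, chiefly Gm6733, so their counts may be split with those models.

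EMC gave 1 call in 10 genes and the tail-anchor route 1 in 5, against 9.76% of all genes that fell. EMC thus stood near the share over all genes. Emc7, an EMC subunit with a part in the ER lumen, had 41.4 to 47.1 CPM in KO cells, against 56 and 57.7 CPM in WT cells, a log2 fold change of -0.37 ± 0.08 (SE, adjusted p = 0.0108 by edgeR). The other EMC genes had log2 fold changes from -0.24 (Emc3) to 0.38 (Emc6), and the arm's median was -0.07. Wrb, a subunit of the insertion receptor, had 17.5 to 20.3 CPM in KO cells, against 26.5 and 28.8 CPM in WT cells, and fell by 0.54 on the log2 scale. Get4, which holds the targeting factors together, had 41.8 to 57.6 CPM in KO cells, against 66.03 and 61.2 CPM in WT cells, and did not pass (log2 fold change -0.36, adjusted p = 0.0624 by edgeR). Bag6, a chaperone that receives tail-anchored chains, had 237 to 292 CPM in KO cells and 267 and 282 CPM in WT cells, with overlapping ranges.

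**Figure D2:**
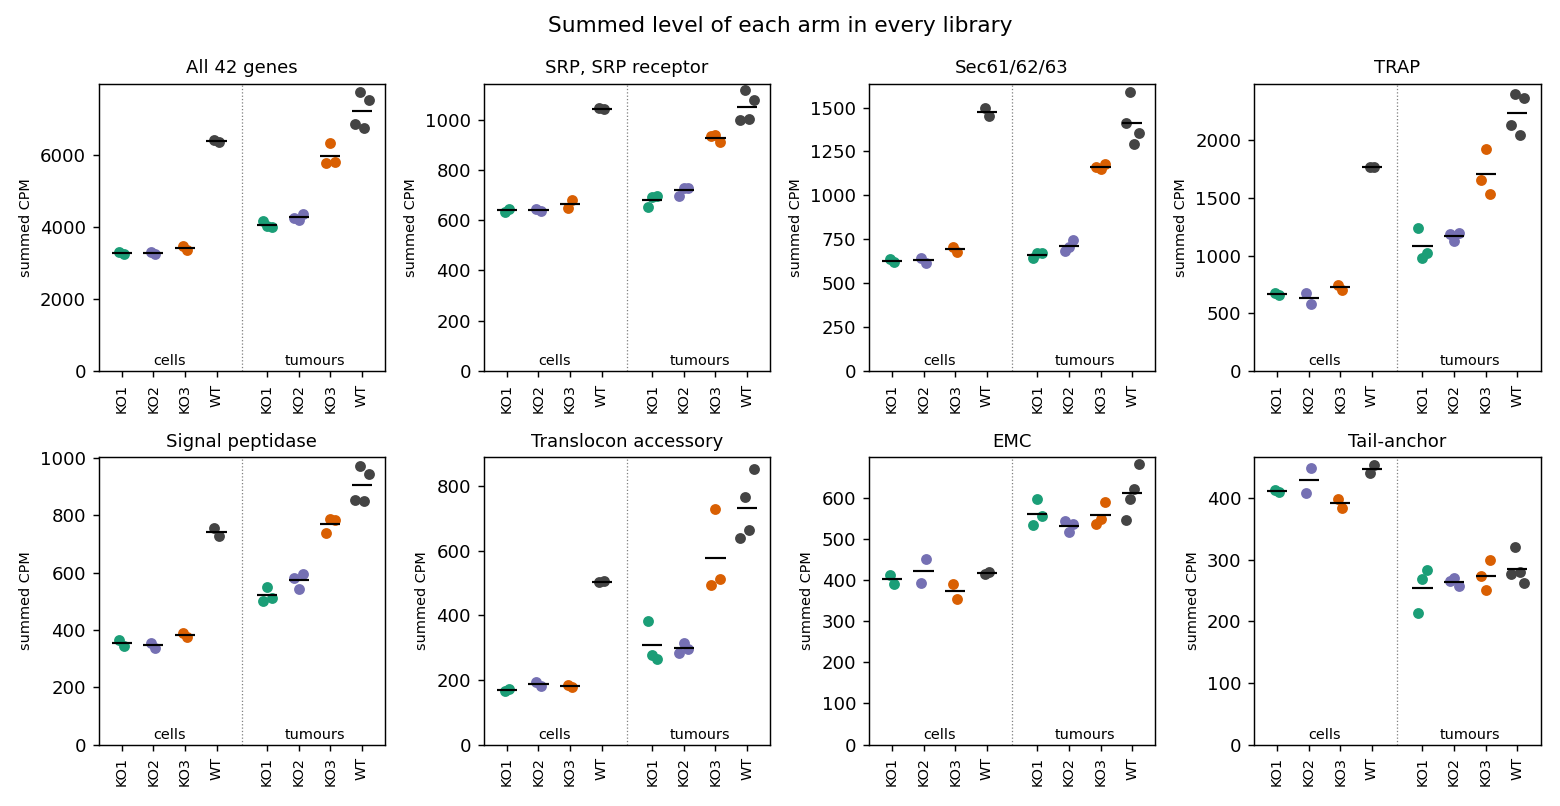
Summed CPM (y axis, from 0) of all 42 members and of each arm in every library; points are libraries and horizontal lines are group means, with KO1, KO2, KO3 and WT cells on the left and tumours in the same order on the right. The TRAP sum was 581 to 747 CPM in KO cells against 1768 and 1772 CPM in WT cells, while the EMC sums were 355 to 452 CPM in KO cells and 415 and 419 CPM in WT cells.

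The arms could be ranked by their summed level as a share of WT. In KO1, KO2 and KO3 cells the accessory sum was 33.6%, 37.0% and 35.9% of the WT mean, the TRAP sum 37.7%, 35.5% and 41.0%, the Sec61 sum 42.7%, 42.8% and 47.0%, the signal peptidase sum 47.8%, 46.7% and 51.5% and the SRP sum 61.2%, 61.4% and 63.7%. The tail-anchor sum was 92.1%, 95.8% and 87.4% and the EMC sum 96.3%, 101.0% and 89.3%. These sums are carried by the genes with the most counts in each arm.

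Further genes of the same process were read from 3 lists. Of 12 oligosaccharyltransferase genes, whose products attach glycans to chains as they emerge from the channel, 11 fell in KO cells, with a median of -1.07. Ostc fell by 1.83 and Magt1 by 1.27 on the log2 scale. Of 6 genes of the multipass translocon, which joins Sec61 for membrane proteins with several spans, 3 fell, with a median of -0.42, among them Nomo1 at -0.68 and Tmco1 at -0.49. Of 12 other targeting and ribosome-binding factors 5 fell, with a median of -0.32, among them the ribosome-binding protein Rrbp1 at -0.88 and the signal peptide peptidase Hm13 at -1.11. None of these 30 genes rose in the pooled comparison. Srp54b, on the last list and named here because of Srp54a, fell by 0.53. Sec24d, Dnajb9 and Hspa5, ER genes of the unfolded protein response, fell by 2.35, 1.45 and 1.31.

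CCACG was found in the promoters of 10 of the 16 members that fell in KO cells and have a RefSeq promoter, and of 7 of the 12 others. CCACGTC was in 3 of the 16, Serp1, Ssr1 and Sec63, and in 0 of the 12. All 3 signal peptidase genes with a RefSeq promoter, Spcs1, Spcs2 and Sec11a, held CCACG, in Sec11a only after the start. In the Sec61 arm Sec61a2 and Sec63 held it while Sec61b, Sec61g and Sec62 did not. Spcs3, Sec11c and Sec61a1 had no RefSeq promoter at hand and were not examined.

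Each KO line was also set against WT cells, with the WT libraries shared by these comparisons. In KO1 cells 26 members fell and 1 rose, in KO2 cells 26 fell and 1 rose, and in KO3 cells 28 fell and 0 rose, by edgeR at an adjusted p of 0.05. Over all genes, 20.5% fell and 17.7% rose in KO1 cells, 20.2% fell and 17.4% rose in KO2 cells, and 14.1% fell and 10.4% rose in KO3 cells. All TRAP and signal peptidase genes, 5 of 6 Sec61 arm genes and 3 of 4 accessory genes fell in each line. The gene that rose in KO1 cells was Camlg, the other subunit of the tail-anchor receptor, at 27.5 and 27.9 CPM in KO1 cells against 22.9 and 23.6 CPM in WT cells (log2 fold change 0.25). The one that rose in KO2 cells was Emc6, a membrane subunit of EMC, at 44.5 and 65.1 CPM in KO2 cells against 29.4 and 33.4 CPM in WT cells (log2 fold change 0.81 ± 0.18, SE). The Camlg call was lost with DESeq2, without the filter, with the length-scaled table and without any 1 of the WT or KO1 cell libraries, and the Emc6 call was lost without KO2 cells 2.

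KO1 against KO2 cells gave 0 calls among 41 members by edgeR, against 1.63% of all genes that were lower in KO1 and 1.37% that were higher. DESeq2 gave 1 call, against 384 of all 12254 genes. Leaving out KO2 cells 1 gave 1 call by edgeR. At an unadjusted p under 0.05 by edgeR there were 3 members, and the share of all genes at that level is not given here. KO3 against the mean of KO1 and KO2 cells gave 9 calls, 3 lower and 6 higher, against 15.5% and 17.1% of all genes. The lower ones were Sec61a2 at -0.30, Asna1, the ATPase of the tail-anchor route, at -0.24 and Serp1 at -0.19. Serp1 had 80.5 and 74.8 CPM in KO3 cells, 77.2 and 82.6 CPM in KO1 cells and 94.2 and 100.4 CPM in KO2 cells. The higher ones were Srpr at 0.34, Tram2 at 0.32, Sec61b at 0.28, Tram1 at 0.26, Get4 at 0.23 and Ssr1 at 0.19. Srpr had 191 and 201 CPM in KO3 cells, against 149 and 155 CPM in KO1 cells and 155 and 157 CPM in KO2 cells, and KO3 did not overlap the other lines. Serp1 and Get4 did overlap between KO3 and the other KO lines, and only Srpr was called in every alternative run. The count of 9 moved with single libraries, to 4 without KO1 cells 2, 14 without KO2 cells 1, 3 without KO3 cells 1 and 1 without KO3 cells 2. The epithelial marker sum moved with this comparison, at 131 to 154 CPM in KO3 cells against 26.5 to 31.9 CPM in KO1 and KO2 cells. Both of its testable markers were higher in KO3, and their part in the result was not tested.

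**Figure D3:**
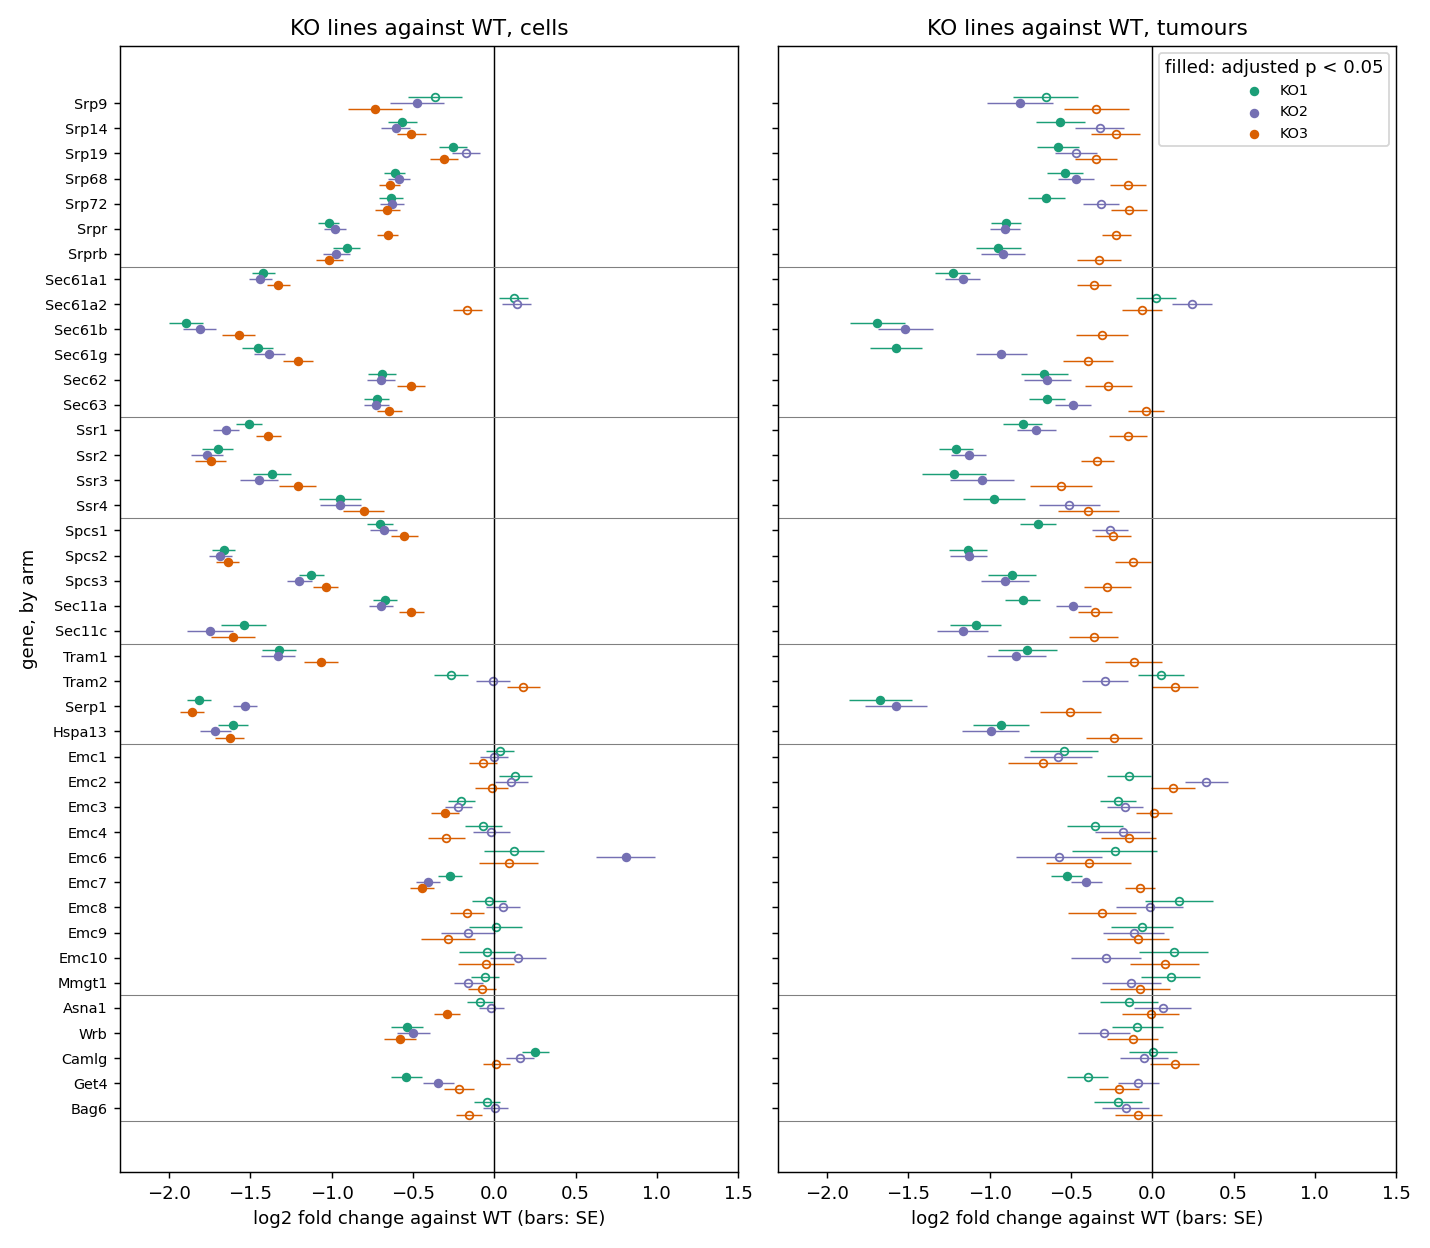
Log2 fold change against WT (x axis, bars are SE) of 41 members (y axis, by arm, Srp54a left out) for KO1, KO2 and KO3 in cells (left) and tumours (right); filled points passed an adjusted p of 0.05. In cells Sec61b was at -1.90, -1.81 and -1.57 in KO1, KO2 and KO3, and in tumours at -1.69, -1.52 and -0.31.

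In tumours the KO lines parted. Summed, the 42 members stood at 4004 to 4352 CPM in KO1 and KO2 tumours, 5794 to 6334 CPM in KO3 tumours and 6760 to 7763 CPM in WT tumours, or 56.3%, 59.0% and 82.7% of the WT mean in KO1, KO2 and KO3. These 3 sets of values did not overlap. In whole tumours fewer cells of a type and less RNA per cell cannot be told apart. By arm, KO1, KO2 and KO3 tumours had 42.2%, 40.8% and 79.0% of the WT accessory sum, 46.9%, 50.4% and 82.4% of the Sec61 sum, 48.3%, 52.3% and 76.3% of the TRAP sum, 57.5%, 63.3% and 85.1% of the signal peptidase sum and 64.7%, 68.4% and 88.4% of the SRP sum. The EMC sum was 91.8%, 86.9% and 91.2% and the tail-anchor sum 89.4%, 92.9% and 96.3%.

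Markers of other cell types varied between tumours. The 4 prostate epithelial markers summed to 174 to 299 CPM in KO1, 94.2 to 134 CPM in KO2, 87.9 to 311 CPM in KO3 and 108 to 203 CPM in WT tumours, with overlapping ranges between KO3 and every other group and Krt18 at 0 counts in KO1 tumours. The 5 fibroblast markers summed to 1938 to 2903 CPM in KO1, 662 to 916 CPM in KO2, 688 to 1541 CPM in KO3 and 432 to 2485 CPM in WT tumours, with 0 of 5 at 0 counts in any group. The 6 plasma and B cell markers stand for a cell type rich in this machinery. They summed to 17.7 to 26.4 CPM in KO1, 8.57 to 13.4 CPM in KO2, 5.82 to 14.9 CPM in KO3 and 8.23 to 21.3 CPM in WT tumours, with KO1 above both other KO lines. The part of these cells in the tumour results was not tested. The fibroblast sums of KO1 and KO2 tumours did not overlap. Nor did their plasma and B cell sums, or their leukocyte marker sums of 523 to 763 CPM in KO1 and 297 to 476 CPM in KO2. Set against each other, KO1 and KO2 tumours gave 0 members called by edgeR, against 0.663% of all genes by edgeR. With so few calls over all genes, this 0 says nothing about the part of these cells. DESeq2 called 3 members. At an unadjusted p under 0.05 by edgeR there were 8, 7 lower and 1 higher in KO1. The shares of all genes for these last counts are not given here, so the counts are not read further.

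All KO tumours against WT tumours gave 10 members that fell and 0 that rose among 42, against 2.37% of all 14200 genes tested that fell and 1.28% that rose by edgeR. They were Srp19, Srpr, Srprb, Sec61a1, Ssr2, Ssr3, Sec11a, Sec11c, Serp1 and Emc1. The median log2 fold change was -0.39 without Srp54a, against 0.00 over all genes. Serp1 had the largest fall, -1.14 ± 0.28 (SE, adjusted p = 0.0384 by edgeR). In 7 members, Srpr, Sec61a1, Sec61b, Ssr2, Ssr3, Spcs1 and Sec11a, every KO tumour lay below every WT tumour, as in 1.90% of all genes tested. The count of calls rested on few libraries: it was 0 without WT tumour 2, without WT tumour 4, without WT tumours 1 and 4, without line KO2, or with WT tumours 3 and 4 summed. Over all genes these runs called 154, 269, 89, 123 and 246, against 518 in the main run. The member count was 3 without WT tumour 3, 6, 4 and 3 without KO1 tumours 1, 2 and 3, and 2, 2 and 3 without KO2 tumours 1, 2 and 3. In those runs 254 to 482 genes were called over all. Dropping line KO1 left 2 members and 297 genes called, and dropping line KO3 left 23 members and 769 genes.

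Emc1 and Srp19 were among these 10 and had not passed in cells. Emc1, a large subunit of EMC, had 50.9, 53.4 and 52 CPM in KO1 tumours, 50.2, 46.03 and 49.8 CPM in KO2 tumours and 51.1, 41.5 and 47.7 CPM in KO3 tumours, against 51.3, 67.96, 64.1 and 108 CPM in WT tumours. WT tumour 4 held the highest value and WT tumour 1 lay within the KO range. Emc1 overlaps Ubr4 on the same strand, so its counts may hold some of that gene's. Srp19, which joins SRP RNA before Srp54 does, had 46.6 to 65.6 CPM in KO tumours and 62.3 to 84.9 CPM in WT tumours, a log2 fold change of -0.46 ± 0.10 (SE), with KO3 tumour 3 inside the WT range. Get4 had 41.98 to 63.3 CPM in KO tumours and 56.1 to 73.9 CPM in WT tumours, and did not pass (log2 fold change -0.21).

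In the same comparison 4 of 12 oligosaccharyltransferase genes fell, among them Krtcap2 by 0.95 and Dad1 by 0.65 on the log2 scale. The multipass list gave 0 of 6, with Tmem147 at -0.37 and Wdr83os at -0.29. The other targeting factors gave 3 of 12, among them Rrbp1 at -0.63 and Hm13 at -0.72.

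Line by line against WT tumours, with the WT libraries shared, 24 members fell in KO1 tumours and 20 in KO2 tumours, with 0 rising in either. Over all 14483 genes tested, 6.86% fell and 3.71% rose in KO1 tumours, and 2.15% fell and 0.898% rose in KO2 tumours. In KO1 tumours the members that fell were all TRAP and signal peptidase genes, 5 of 6 in the Sec61 arm, 6 of 8 in the SRP arm, 3 of 4 accessory genes and Emc7. In KO2 tumours they were 5 of 6 in the Sec61 arm, 3 of 4 TRAP, 4 of 5 signal peptidase, 4 of 8 SRP and 3 of 4 accessory genes and Emc7. No tail-anchor gene passed in either line. In the same comparison of KO1 tumours, 1 of 5 leukocyte and 1 of 5 fibroblast markers tested rose and 2 of 4 neutrophil markers fell, while 0 of these were called in KO2 tumours. Leukocyte markers summed to 523 to 763 CPM in KO1, 297 to 476 CPM in KO2 and 218 to 701 CPM in WT tumours, and the part of these cells was not tested. The KO2 count was 13 without WT tumour 2 and 9, 10 and 12 without KO2 tumours 1, 2 and 3. Over all genes these runs called 259, 149, 188 and 197, against 441 in the main run.

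KO3 tumours against WT tumours gave 0 called members by edgeR, against 1.24% of all genes called. DESeq2 gave 5 calls, 4 lower and 1 higher, against 659 of all 14483 genes. Leaving out WT tumour 1 gave 1 call by edgeR. At an unadjusted p under 0.05 by edgeR there were 12 members, all lower, and the share of all genes at that level is not given here. In 8 members all KO3 tumours lay below all WT tumours: Srpr, Sec61a1, Sec61b, Ssr2, Ssr3, Spcs1, Sec11a and Emc1. The same held for 5.52% of all genes tested. The median log2 fold change was -0.22 without Srp54a.

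**Figure D4:**
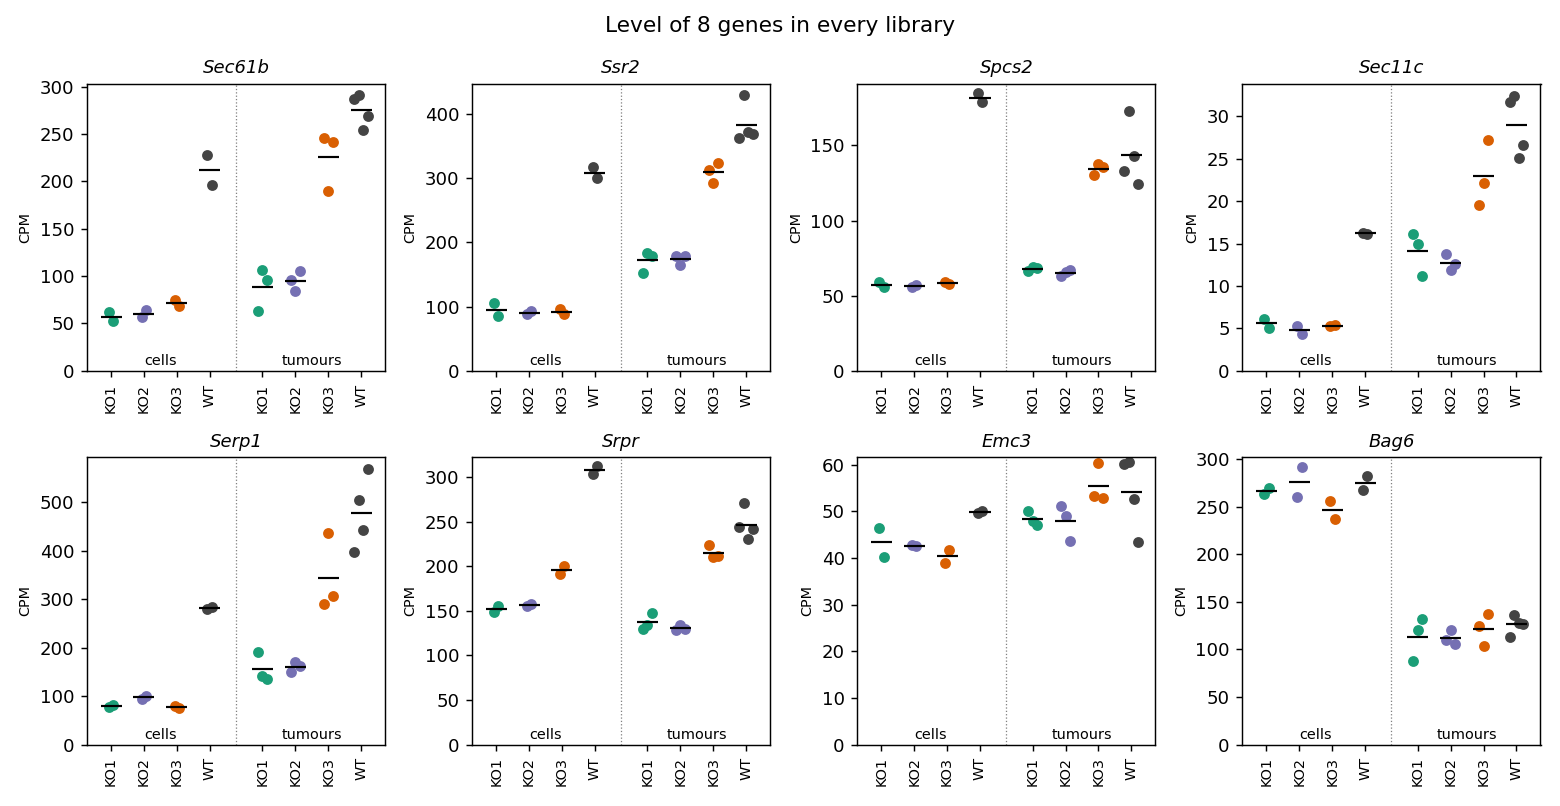
CPM (y axis, from 0) of Sec61b, Ssr2, Spcs2, Sec11c, Serp1, Srpr, Emc3 and Bag6 in every library; points are libraries and horizontal lines are group means, with KO1, KO2, KO3 and WT cells left of the dotted line and tumours in the same order right of it. Spcs2 was at 130.4 to 137 CPM in KO3 tumours, 63.01 to 68.8 CPM in KO1 and KO2 tumours and 125 to 173 CPM in WT tumours.

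KO3 tumours were set against the mean of KO1 and KO2 tumours directly. Of 42 members 15 were higher and 0 lower by edgeR, against 1.19% of all genes higher and 0.697% lower. They were 4 of 6 genes of the Sec61 arm, 2 of 4 of TRAP, 3 of 5 of signal peptidase, 3 of 4 accessory genes, 2 of 8 of the SRP arm, 1 of 10 of EMC and 0 of 5 of the tail-anchor route. The median log2 difference was 0.34 without Srp54a, against 0.00 over all genes. Of the 15, Srpr, Sec61a1, Sec61b, Ssr2, Spcs2 and Serp1 were called in every alternative run. The count was 9 without KO1 tumour 2, KO2 tumour 1 or KO2 tumour 3, 7 without KO3 tumour 2 and 6 without KO3 tumour 3. The summed level of 6 skeletal muscle markers, 0 of 6 at 0 counts in any tumour group, moved with this comparison, at 1.91 to 6.36 CPM in KO3 tumours, 13.7 to 898 CPM in KO1 and KO2 tumours and 1.87 to 4119 CPM in WT tumours, and their part in it was not tested.

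Sec61b had 245, 190.1 and 242 CPM in KO3 tumours, against 62.9, 106 and 96.2 CPM in KO1 tumours, 96.2, 84.2 and 105 CPM in KO2 tumours, and 286, 291, 254 and 269 CPM in WT tumours. KO3 exceeded KO1 and KO2 by 1.29 ± 0.14 on the log2 scale (SE, adjusted p = 0.000488 by edgeR). Every KO3 tumour lay above every KO1 and KO2 tumour and below every WT tumour. Sec61a1 had 415, 390.0 and 405 CPM in KO3 tumours, against 209.6, 223 and 242 CPM in KO1 tumours, 213, 235 and 226 CPM in KO2 tumours, and 502, 587, 444 and 499 CPM in WT tumours, a log2 difference of 0.84 ± 0.09 (SE) and the same order of groups. Sec61g had 183, 158 and 197 CPM in KO3 tumours, against 67.4 to 143 CPM in KO1 and KO2 tumours and 188 to 274 CPM in WT tumours, a difference of 0.86, with KO3 tumour 3 inside the WT range.

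Of the channel's partners, Sec63 passed and Sec62 did not. Sec63 was at 107, 116 and 101 CPM in KO3 tumours, 64.1 to 84.7 CPM in KO1 and KO2 tumours and 95.8 to 117 CPM in WT tumours, and differed by 0.53 between KO3 and the other KO lines. Sec62 was at 189 to 279 CPM in KO3 tumours, 162 to 202 CPM in KO1 and KO2 tumours and 246 to 302 CPM in WT tumours, and did not pass (0.38). The paralogue Sec61a2 was at 16.9 to 23.6 CPM in KO tumours and 16.8 to 21.9 CPM in WT tumours and passed in no comparison of tumours.

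TRAP gave 2 calls between KO3 and the other KO tumours. Ssr2 had 313, 292 and 323 CPM in KO3 tumours, against 153 to 184 CPM in KO1 and KO2 tumours and 362 to 429 CPM in WT tumours, a log2 difference of 0.83 ± 0.09 (SE, adjusted p = 0.000498 by edgeR). Ssr1 had 376, 442 and 366 CPM in KO3 tumours, against 235 to 282 CPM in KO1 and KO2 tumours and 391 to 464 CPM in WT tumours, a difference of 0.60. KO3 tumours lay clear of the other KO tumours in both genes. Ssr3 was at 774, 1037 and 663 CPM in KO3 tumours, 428 to 696 CPM in KO1 and KO2 tumours and 1068 to 1361 CPM in WT tumours, overlapped between KO lines and did not pass (0.57, adjusted p = 0.136 by edgeR). Ssr4, at 159 to 197 CPM in KO3 tumours, 111 to 205 CPM in KO1 and KO2 tumours and 181 to 282 CPM in WT tumours, did not pass either (0.35).

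In signal peptidase, Spcs2 had 130.4, 137 and 136 CPM in KO3 tumours, against 66.2, 68.8 and 68.4 CPM in KO1 tumours, 63.01, 65.5 and 66.96 CPM in KO2 tumours, and 133, 173, 143 and 125 CPM in WT tumours. Its log2 difference between KO3 and the other KO lines was 1.01 ± 0.10 (SE, adjusted p = 0.000295 by edgeR), and KO3 tumours lay inside the WT range. Sec11c had 19.5, 22.1 and 27.2 CPM in KO3 tumours, against 11.1 to 16.2 CPM in KO1 and KO2 tumours and 25.1 to 32.4 CPM in WT tumours, a difference of 0.77. Spcs3 had 225 to 279.7 CPM in KO3 tumours, against 139 to 177 CPM in KO1 and KO2 tumours and 236 to 331 CPM in WT tumours, a difference of 0.61. The other catalytic subunit, Sec11a, and Spcs1 did not pass, with differences of 0.29 and 0.24. Sec11a was at 167 to 175 CPM in KO3 tumours, 111 to 154 CPM in KO1 and KO2 tumours and 184 to 234 CPM in WT tumours. Spcs1 was at 181 to 209.8 CPM in KO3 tumours, 132 to 208 CPM in KO1 and KO2 tumours and 216 to 244 CPM in WT tumours.

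Serp1 had 290.1, 438 and 306 CPM in KO3 tumours, against 192, 141 and 136 CPM in KO1 tumours, 149, 169.6 and 162 CPM in KO2 tumours, and 398, 505, 442 and 568.2 CPM in WT tumours, a log2 difference of 1.12 ± 0.17 between KO3 and the other KO lines (SE, adjusted p = 0.00405 by edgeR). KO3 tumour 2 lay within the WT range and the other KO3 tumours below it. Hspa13, at 66.97, 98.1 and 69.9 CPM in KO3 tumours, 40.2 to 61.5 CPM in KO1 and KO2 tumours and 80.3 to 106 CPM in WT tumours, differed by 0.73, and Tram1 by 0.69.

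In the SRP arm only the receptor subunits Srpr and Srprb passed, both higher in KO3. The arm's log2 differences without Srp54a all lay above zero, from 0.18 to 0.68. Of the particle's proteins, Srp68 had 119 to 139 CPM in KO3 tumours, against 88.2 to 113 CPM in KO1 and KO2 tumours. Srp72 had 268 to 332 CPM against 195 to 265 CPM, and neither overlapped. Srpr had 224, 211 and 211 CPM in KO3 tumours, against 129 to 147 CPM in KO1 and KO2 tumours and 229.9 to 271 CPM in WT tumours, a log2 difference of 0.68 ± 0.08 (SE). Srprb had 57.7, 49.2 and 48.7 CPM in KO3 tumours, against 30.5 to 36.98 CPM in KO1 and KO2 tumours and 52.7 to 73.7 CPM in WT tumours, a difference of 0.60 ± 0.12. Emc7 alone passed in EMC, at 86.6, 94.9 and 98.95 CPM in KO3 tumours, 66.3 to 77.95 CPM in KO1 and KO2 tumours and 88.5 to 102 CPM in WT tumours, a difference of 0.39. Wrb, at 16.2 to 18.4 CPM in KO3 tumours, 12.3 to 18.9 CPM in KO1 and KO2 tumours and 14.2 to 21.2 CPM in WT tumours, did not pass, and the tail-anchor arm's median difference was 0.07.

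Other ER genes were read in the same comparison. Dnajb9, a co-chaperone, had 38.3, 40.8 and 36.6 CPM in KO3 tumours, against 11.1 to 16.4 CPM in KO1 and KO2 tumours and 40.7 to 54.8 CPM in WT tumours. Sec24d, a coat protein of vesicles that leave the ER, had 58.6, 53.2 and 50.5 CPM in KO3 tumours, against 15.5 to 21.2 CPM in KO1 and KO2 tumours and 70.9 to 86.7 CPM in WT tumours. Both were called, as was Xbp1, at 84.8 to 107 CPM in KO3 tumours, 52.4 to 78.4 CPM in KO1 and KO2 tumours and 66.9 to 100.1 CPM in WT tumours. Hspa5 was at 1467 to 1905 CPM in KO3 tumours, 1144 to 1761 CPM in KO1 and KO2 tumours and 1512 to 2380 CPM in WT tumours, with overlapping ranges. In cells Sec24d was at 36.1 and 30.6 CPM in KO3, against 28.1 to 29.7 CPM in KO1 and KO2 and 151 and 157 CPM in WT. Xbp1 was already higher in KO3 cells, at 96.1 and 88.2 CPM, against 52.7 to 73.6 CPM in KO1 and KO2 cells and 113 and 111 CPM in WT cells. Of the 12 oligosaccharyltransferase genes, 7 passed and were higher in KO3 tumours, among them Ostc by 1.07 and Stt3a by 0.86. The multipass translocon gave 0 of 6, with Nomo1 at 0.34 and Ncln at 0.35, and the other targeting factors 2 of 12, Hm13 at 0.66 and Sil1, a nucleotide exchange factor of BiP, at 0.58.

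**Figure D5:**
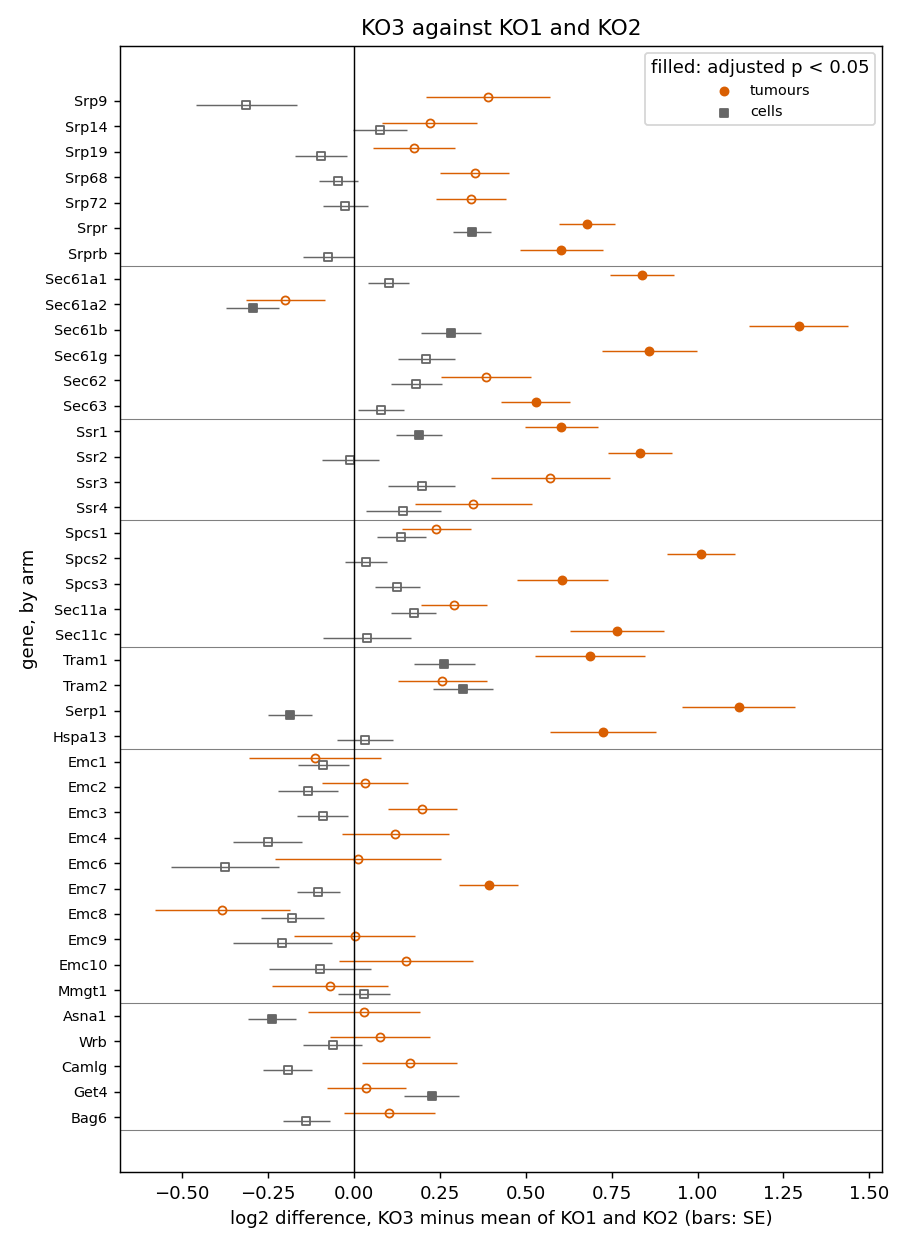
Log2 difference of KO3 minus the mean of KO1 and KO2 (x axis, bars are SE) for 41 members (y axis, by arm, Srp54a left out), with circles for tumours and squares for cells; filled symbols passed an adjusted p of 0.05. In tumours 15 genes passed, up to 1.29 for Sec61b, and in cells the 9 that passed lay between -0.30 and 0.34.

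Whether the KO effect differed between tumours and cells was tested on all 21 libraries. With the KO lines pooled, 1 member passed, Ssr1, whose KO effect was 1.01 ± 0.23 log2 units less negative in tumours (SE, adjusted p = 0.0353 by edgeR), against 0.863% of all 15173 genes tested with a positive and 0.0989% with a negative difference. That call was lost without WT cells 1 or 2, KO1 cells 1 or 2, KO2 cells 1 or 2, or WT tumour 1 or 3, each giving 0 calls, and 4 members were called without line KO3.

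The same question was asked by line, in comparisons added after the data were seen. The KO3 effect was less negative in tumours than in cells in 12 members, against 1.66% of all genes, and more negative in 0, against 0.395%. The 12 were Srpr, Srprb, Sec61a1, Sec61b, Sec63, Ssr1, Ssr2, Spcs2, Spcs3, Sec11c, Serp1 and Hspa13, with the largest shift in Spcs2, at 1.55 ± 0.15 (SE). None was an EMC or tail-anchor gene. For KO1 and KO2 together 4 members shifted the same way, Ssr1 (0.85), Hspa13 (0.72), Ssr2 (0.59) and Spcs2 (0.56), against 3.68% of all genes, and 0 the other way, against 1.62%. The difference of KO3 from KO1 and KO2 was itself more positive in tumours than in cells in 7 members, Srprb, Sec61a1, Sec61b, Ssr2, Spcs2, Serp1 and Emc7, against 2.23% of all genes, and more negative in 0, against 2.16%. Its size was 1.31 ± 0.22 in Serp1 and 1.02 ± 0.22 in Sec61b (SE). The KO3 count was 7 without WT cells 1 or KO3 cells 1 and 5 without KO3 cells 2. The count for KO1 and KO2 was 1 without WT cells 1 and 2 without WT cells 2, and the count of 7 was 4 without KO3 cells 1 or 2.

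WT tumours were set against WT cells to show how the arms stood without the knockout. Of the 42 members 17 were higher and 8 lower in tumours by edgeR, against 34.9% of all genes higher and 24.8% lower. Both counts stood near the shares over all genes. EMC had 7 of 10 genes higher, with a median of 0.58. Emc2, a cytosolic subunit of EMC, had 71.7, 59.2, 60.4 and 62.8 CPM in WT tumours against 28.4 and 26.7 CPM in WT cells, a log2 difference of 1.21 ± 0.15 (SE). Sec11a had 234, 217, 184 and 219 CPM in WT tumours, against 94.9 and 98.7 CPM in WT cells, a difference of 1.14 ± 0.11. Both genes were higher in every tumour. The tail-anchor route had 3 of 5 lower, among them Bag6, at 114, 136, 128 and 127 CPM in WT tumours against 267 and 282 CPM in WT cells (-1.12 ± 0.13, SE), and Wrb at -0.60. Sec61a1 and Spcs2 were lower in WT tumours (-0.49 and -0.34), while Serp1 was higher (0.76). Fibroblast markers summed to 432 to 2485 CPM in WT tumours and leukocyte markers to 218 to 701 CPM, against 0 and 0.0525 CPM and 2.53 and 2.52 CPM in WT cells, and their part in these differences was not tested. The count of 25 was 16 without WT cells 1 and 13 without WT cells 2.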

How the data were processed

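Gene-level estimated counts for 21 RNA-seq libraries (8 of cells, 13 of tumours) were taken as the authors deposited them. The submitters' processing notes name Salmon 1.5.2, STAR, Trim Galore 0.6.7 and the build GRCm38, without settings or annotation. In each library 7.96% to 10.2% of genes had values that were not whole, and counts were rounded. Coordinates were read from GENCODE M21, which held 45143 of the 45706 genes. CPM per kb used the longest principal transcript. Shared sequence was counted in 31-base words.

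Genes were filtered with filterByExpr, scaled by TMM and tested with edgeR 4.0.16 (quasi-likelihood F test, R 4.3.3), with Benjamini-Hochberg adjustment over all genes tested and a threshold of 0.05. The SE was the absolute log2 fold change divided by the square root of F. KO against WT pooled the lines; line comparisons fitted the lines as groups, and comparisons of tumours with cells used all libraries. The fits were tested on simulated data. Alternatives were DESeq2 1.42.0, RLE scaling, no filter, the authors' deposited length-scaled estimated counts, the replicate number as a block, summed libraries, and leaving out libraries or lines. No library pair agreed within sampling noise (lowest chi-square per degree of freedom 7.98).

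The members, gene lists and comparisons were chosen with earlier results of these data known. Values by library, or their range over several lines, are given for every Sec61, TRAP and signal peptidase member and, in each other arm, for the gene with the smallest p in cells and in tumours; from the wider lists the 2 genes with the smallest p were named. A single count was worth 0.0354 to 0.0784 CPM, depending on the library. One listed epithelial marker is not reported here.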

Additional observations from a re-analysis of the deposited data

Results flagged for a closer look

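Among the 41 members examined in the 4 WT tumours, Srp72 and Ssr2 each had 1 library far above the others. In both it was WT tumour 2, with 365.2 CPM of Srp72, against 307.8 to 313.2 CPM in the other WT tumours, and 429.4 CPM of Ssr2, against 362.2 to 371.6 CPM. Chance gives such a gap in about 1 group in 20.

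The knockout effect of Ssr1 differed between tumours and cells, by 1.01 on the log2 scale. Between lines, 15 members were higher in KO3 tumours than the mean of KO1 and KO2, against 1.19% of all genes higher and 0.697% lower. In cells 9 members differed, against 17.1% of all genes higher and 15.5% lower, so members differed no more often there than genes in general. Comparing tumours with cells, the KO3 effect differed in 12 members, against 1.66% of all genes with a positive and 0.395% with a negative difference. The effect of KO1 and KO2 differed in 4, against 3.68% and 1.62%. The distance of KO3 from KO1 and KO2 differed in 7, against 2.23% and 2.16%. The causes were not tested.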

How the results depend on the processing

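No called member changed direction under any alternative run. In KO against WT cells the count of 24 was 7 with libraries summed per line, and 21 to 26 leaving out 1 library. Over all genes, summing the libraries called 38 of 13133, against 1808 of 12254 in the main run. In KO against WT tumours the count of 10 was 22 with DESeq2 and 25 with lines as groups. Over all genes these runs called 1088 of 14200 and 1118 of 14483, against 518 of 14200 in the main run. The member count was 0 with the replicate block, with WT tumours 3 and 4 summed or without line KO2. It was also 0 without WT tumours 1 and 4, a run chosen after seeing the data. Over all genes these runs called 98, 246, 123 and 89, against 518 in the main run. With libraries summed per line 0 of all 16638 genes were called, so the 0 members there say nothing about the members. The member count was 2 without KO1 and 23 without KO3, with 297 and 769 genes called over all. It was 0 to 14 leaving out 1 library. DESeq2 gave 5 calls for KO3 against KO1 and KO2 in cells, 1 for KO1 against KO2 in cells and 3 in tumours, 5 for KO3 against WT tumours and 11 for the tumour-minus-cell shift of KO3 from KO1 and KO2. Over all genes DESeq2 called 3267 of 12254 for KO3 against KO1 and KO2 cells and 384 of 12254 for KO1 against KO2 cells. For KO3 against WT tumours it called 659 of 14483. Without the filter, KO3 against KO1 and KO2 in cells gave 14, KO1 against KO2 in cells 2 and the pooled tumour-minus-cell test 0; the length-scaled table gave 4 for KO3 against KO1 and KO2 in cells. That pooled test gave 0 with WT tumours 3 and 4 summed or without WT tumours 1 and 4, and 4 without KO3. The cause of these changes was not tested.

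Deviations of samples with the same replicate number had r from -0.0448 to 0.107 in cells and -0.379 to 0.135 in tumours. In cells, with 2 libraries per group, the deviations within a group mirror each other, so these r say little. The labels do not say what the numbers stand for, and whether they mark a batch cannot be told. With the replicate block, KO against WT tumours gave 0, KO2 against WT tumours 13, WT tumours against WT cells 16 and the pooled tumour-minus-cell test 0, and the other counts stayed within 1.5 times. Over all genes the block called 98 for KO and 310 for KO2 against WT tumours, against 518 and 441 in the main run.

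Leaving out 1 library gave 24 to 27, 25 to 26 and 24 to 26 calls in KO1, KO2 and KO3 cells against WT, 1 to 14 for KO3 against KO1 and KO2 cells, 0 to 1 for KO1 against KO2 cells, 20 to 26, 9 to 22 and 0 to 1 in KO1, KO2 and KO3 tumours against WT, 6 to 14 for KO3 against KO1 and KO2 tumours, and 0 to 0 for KO1 against KO2 tumours. It gave 13 to 23 for WT tumours against cells, and 0 to 1, 5 to 14, 1 to 4 and 4 to 10 for the tumour-minus-cell tests pooled, of KO3, of KO1 and KO2, and of KO3 from KO1 and KO2. Srp54a had 0 counts in every cell library, and its reads may be split with Srp54b.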
